A study of Homo sapiens with 6 samples.

Results

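Of the 6357 loci that were assembled from RNA-seq of FN3K knockout (KO) and wild type (WT) HepG2 cells, 1431 carried no gene name, and these are described here. They were chosen as the rows whose gene name was a dot, and the 4926 rows with a gene name served as the comparison. HepG2 is a human hepatocyte-like cancer cell line, and FN3K (fructosamine-3-kinase) is the kinase that phosphorylates sugars bound to proteins so that they can be removed. The 3 WT and the 3 FN3K KO libraries came from triplicate plates of each genotype, cultured with fetal bovine serum in EMEM, a standard minimal medium, and taken at 70-80% confluency. FN3K had been knocked out by CRISPR, the number of KO clones was not named in the sources used here, and the WT plates carried no stated edit. The groups were compared to find pathways related to FN3K.

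A transcript assembler such as StringTie joins overlapping reads into transcripts, groups overlapping transcripts into a locus and numbers the loci in the order in which it meets them along the genome. A locus receives a gene name where a transcript matches the annotation, so a row without a name can be an unannotated transcript, a transcript of a known gene whose structure did not match, or a fragment of one. The number of such a row therefore tells roughly where it lies but not which gene it belongs to. The deposited table does not pair the 1431 loci with any gene, and no gene name is given to them below. Their own coordinates and sequences were not analysed here.

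Levels are given as FPKM, the count of sequenced fragments scaled by transcript length and sequencing depth, as the authors computed them. FN3K was low in every library labelled KO and fell from 27.7, 21.9 and 23.2 FPKM in WT to 0.782, 1.03 and 0.704 FPKM in KO, and no unnamed locus was numbered between it and either of its named neighbours WDR45B and TBCD. Of 18 hepatocyte markers 12 were listed by name, among them AHSG, which lay between 2590 and 2975 FPKM in the 6 libraries, and of the 12 listed 6 were called higher in KO and 2 lower by the fit described below, which called 21.2% of all loci higher and 36.5% lower. None of 10 markers of blood, endothelial and fibroblast cells was listed. Since 15239 of 19969 annotated protein-coding genes were not listed by name, this does not show that such cells were absent. ALB, APOA2, APOC3, APOE, APOH and FGG were the 6 hepatocyte markers that were not listed by name. In bulk RNA, fewer cells that use a locus and less RNA per cell cannot be told apart.

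Loci without a gene name spanned a similar range of levels to named ones, but a larger share of them was low. Their median level was 11.03 FPKM against 13.7 FPKM for named loci, and the tenth percentile was 1.82 FPKM against 3.68 FPKM. A mean under 2 FPKM was found for 164 unnamed loci (11.5%) and 169 named loci (3.43%). At the upper end the shares were alike, since 88 unnamed loci (6.15%) and 302 named loci (6.13%) had a mean of at least 100 FPKM. Unnamed loci held 5 of the 20 highest means in the table, 28 of the 100 highest, and the highest of all at 9168 FPKM. They carried 23.2%, 23.4% and 23.2% of the summed FPKM in the 3 WT libraries and 24.0%, 24.3% and 22.3% in the 3 KO libraries, so that their share overlapped between the groups.

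The assembled transcript that stands for an unnamed locus bears a number within that locus, and this number went with level. The first transcript stood for 868 of the 1431 loci (60.7%), with a median of 15.8 FPKM. The second stood for 225 loci with a median of 8.55 FPKM, and a later one for 338 loci (23.6%) with a median of 5.28 FPKM. A value of 0 in at least 1 library was seen in 3.69% of the loci with a first transcript, 6.67% of those with a second and 14.8% of those with a later one.

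Libraries of one group disagreed more often for unnamed than for named loci. The standard deviation (SD) of log2(FPKM + 1) within groups had a median of 0.13 for unnamed and 0.11 for named loci, and it exceeded 0.5 in 183 unnamed loci (12.8%) and 207 named loci (4.20%). At matched levels of 8 to 32 FPKM the medians were 0.10 over 560 unnamed and 0.10 over 2380 named loci. Among loci up to 6.31 FPKM they were 0.33 for unnamed and 0.24 for named loci. A 0 in at least 1 library was listed for 97 unnamed loci (6.78%) and 61 named loci (1.24%). In 82 of those 97 loci another library of the same group stood at 1 FPKM or more. An exact 0 of this kind can be a failed estimate, so such values are given library by library and no fold change is given against a group at 0.

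KO and WT were compared with limma, a linear model that shares the estimate of spread across loci, on log2(FPKM + 1) over all 6357 loci. The log2 fold change is KO minus WT on that scale, which understates changes of loci near 1 FPKM, and p-values were adjusted over all loci by the Benjamini-Hochberg method. Since nothing says that the plates were independent cultures or clones, p-values measure the spread between plates, which may be technical. Of the 1431 unnamed loci 727 (50.8%) had an adjusted p under 0.05 against 57.7% of all loci. They rose in KO in 213 (14.9%) against 21.2% of all loci, and fell in 514 (35.9%) against 36.5%. The values of KO and WT did not overlap in 816 unnamed loci (57.0%) against 63.4% of all loci. A further fit held a size term for each library, as the Ballgown package does, and estimated the spread for each locus alone. It called 98 unnamed loci higher and 108 lower, and shares of all loci by this fit are not given here. Both changes are meant by the library term below, so a call lost with it is not tied to either.

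Larger changes were counted where the log2 fold change was beyond 1 in size and the p before adjustment was under 0.05. By this rule 137 unnamed loci (9.57%) passed against 7.63% of all loci. Of these 56 (3.91%) lay above against 4.31% of all loci, and 81 (5.66%) lay below against 3.32%. With the library term 50 unnamed loci lay above and 47 below, again without shares of all loci beside them. The median log2 fold change was -0.18 over unnamed loci, -0.13 over named loci and -0.14 over all loci. These shares are descriptions of the list, and no test of unnamed against named loci was made.

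The share of unnamed loci with a call was below the background mainly among low loci. All loci of the table were divided by mean level into 4 bins of about equal size. In the lowest bin, up to 6.31 FPKM, 34.3% of 490 unnamed loci were called against 44.7% of all loci in that bin. The second bin, up to 13.2 FPKM, had 49.7% of 292 unnamed loci called against 56.0%, and the third 61.3% of 315 against 62.2%. In the highest bin 66.2% of 334 unnamed loci were called against 68.0%. Of the 81 loci that lay below the fold limit, 58 were in the lowest bin, which is 11.8% of the unnamed loci there against 7.17% of all its loci. Of the 88 unnamed loci with a mean of at least 100 FPKM, 23 (26.1%) were called higher and 39 (44.3%) lower, against 29.5% and 44.6% of all loci at that level.

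**Figure D1:**
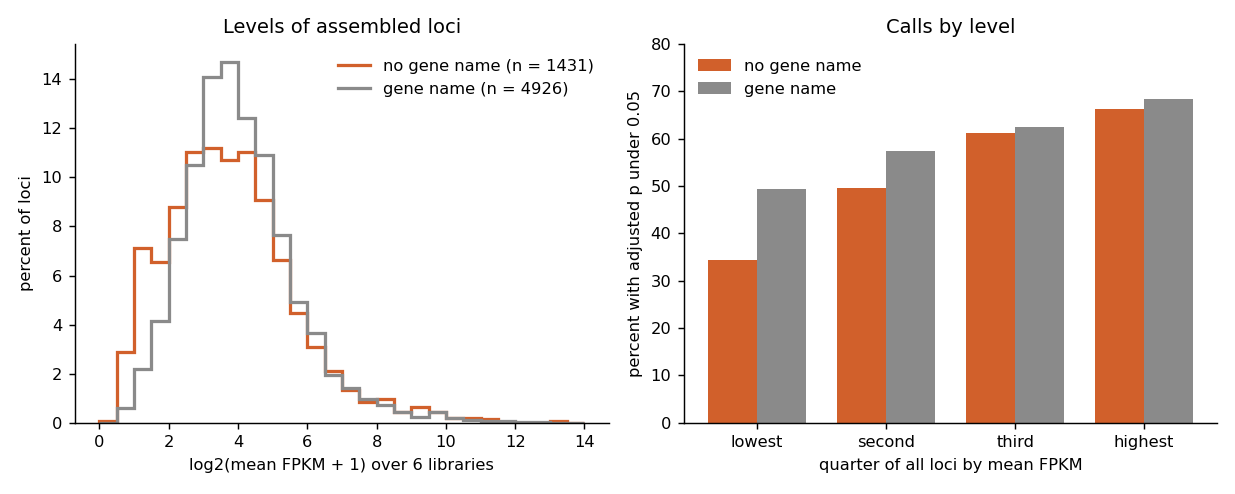
Left, percent of loci (y axis) by log2(mean FPKM + 1) over the 6 libraries (x axis) for the 1431 loci without and the 4926 loci with a gene name. Right, percent of loci with an adjusted p under 0.05 in each of the 4 bins by mean FPKM, which rises from 34.3% to 66.2% for loci without a gene name (orange) and from 49.4% to 68.5% for named loci (grey).

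Loci were placed by the nearest named locus with a lower and with a higher number, with coordinates of the named loci from GENCODE release 29 on GRCh38. Among named loci, numbers followed position in 4447 of 4865 neighbouring pairs of one chromosome (91.4%). When each named locus was left out and placed in the same way, its chromosome was right in 99.96% of 4834 cases, and its position overlapped the span of the nearest neighbours in 84.2%. With 3 neighbours on each side the overlap was 98.6%. Of the 1431 unnamed loci 1396 (97.6%) lay between 2 named loci of one chromosome. The span between them had a median of 517 kb with quartiles of 207 and 1496 kb, so a place is a neighbourhood and not a site. Only 57 spans held no protein-coding gene that the table does not list by name, 114 held 1, 534 held 2 to 5, and 691 held more. By name the table lists few genes, since 15239 of the 19969 protein-coding genes of the annotation were not listed.

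Unnamed loci mostly stood alone. In number order they formed 1100 runs without a named locus between, of which 855 were single loci, 184 were pairs and 47 were triplets, while the longest runs held 6 and 7 loci. The log2 fold change of an unnamed locus had a Pearson correlation of 0.16 (Spearman 0.16) with the mean of its named neighbours across 1396 loci. Named loci gave 0.14 (Spearman 0.12) with their own neighbours across 4832 loci. Loci share libraries and are no independent replicates, so these values only describe the table. Of the 137 unnamed loci past the fold limit, 13 (9.49%) had a named neighbour with a log2 fold change beyond 1 in the same direction.

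**Figure D2:**
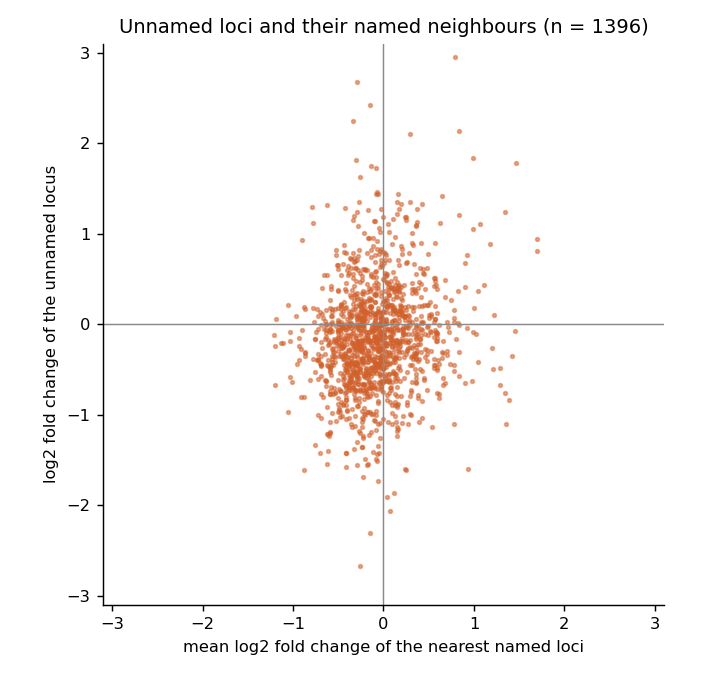
Log2 fold change of each of 1396 unnamed loci (y axis) against the mean log2 fold change of its nearest named loci (x axis), FN3K KO against WT. The points form a cloud around the origin with little slope (Pearson r 0.16), and the highest point is the locus between MMAB and GLTP at 2.95.

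The 8 unnamed loci with the highest log2 fold changes, among called loci of at least 1 FPKM on average whose groups were apart, lay between 1.84 and 2.95. The first was MSTRG.5882, numbered between MMAB (a cobalamin adenosyltransferase) and GLTP (a glycolipid transfer protein), in the span chr12:109553737-109880488. It stood at 1.91, 2.31 and 2.54 FPKM in WT and at 24.2, 22.2 and 25.9 FPKM in KO. Every KO library was far above every WT library, and the ratio of the means was 10.7, with a log2 fold change of 2.95 (SE 0.11, limma adjusted p = 1.5e-07). The span held 3 protein-coding genes that are not listed by name, namely MVK, FAM222A and TRPV4, and its named neighbour MMAB had a log2 fold change of 1.35.

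MSTRG.1744 was numbered between PKLR (the pyruvate kinase of liver and red cells) and RUSC1, in chr1:155289839-155331112. Its level was 18.99, 22.8 and 24.0 FPKM in WT and 103, 95.8 and 99.2 FPKM in KO, a log2 fold change of 2.13 (SE 0.08, limma adjusted p = 2.7e-07). This span was short and held only FDPS and HCN3 among protein-coding genes not listed by name. MSTRG.21007 followed GSTA2, a glutathione S-transferase, and preceded RN7SK, in chr6:52750089-52995950. It stood at 17.2, 21.7 and 18.2 FPKM in WT and at 94.5, 70.8 and 90.9 FPKM in KO, a log2 fold change of 2.10 (SE 0.12, limma adjusted p = 2.0e-06). The unlisted genes of that span were GSTA1, GSTA3, GSTA4 and GSTA5 of the same family, and reads could be shared between those members that are near copies. GSTA2 itself had a log2 fold change of 1.11.

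Also among the highest was MSTRG.18633, between UGT2A3 and UGT2B4 of the UDP-glucuronosyltransferase cluster in chr4:68928463-69495908. It stood at 0.715, 0.729 and 0.489 FPKM in WT and at 9.77, 8.55 and 10.3 FPKM in KO, a log2 fold change of 2.68 (SE 0.17, limma adjusted p = 4.2e-06). Its neighbours moved apart, with log2 fold changes of -1.14 for UGT2A3 and 0.55 for UGT2B4, and this family too has near copies. MSTRG.20597 lay in a histone cluster between HIST1H2AG and HIST1H2AI, with 2.43, 2.35 and 2.72 FPKM in WT and 11.4, 11.3 and 11.9 FPKM in KO. Its log2 fold change was 1.84 (SE 0.11), beside 1.10 for HIST1H2AG and 0.87 for HIST1H2AI.

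The remaining loci of this group had no named neighbour beyond 1 in the same direction. MSTRG.17040, between CRTAP and UBP1 on chromosome 3, stood at 1.02, 1.29 and 1.40 FPKM in WT and 11.4, 10.3 and 11.4 FPKM in KO, while CRTAP and UBP1 had log2 fold changes of -0.23 and -0.06. MSTRG.7290, between IRF2BPL and GSTZ1 on chromosome 14, stood at 7.70, 7.34 and 6.56 FPKM in WT and 40.8, 32.9 and 40.3 FPKM in KO. MSTRG.4860 stood at 1.11, 0.961 and 1.48 FPKM in WT and 9.44, 12.2 and 8.46 FPKM in KO. It could not be placed, because its lower neighbour TMEM45B is on chromosome 11 and its upper neighbour LTBR on chromosome 12. A named neighbour beyond 1 in the same direction was present for 4 of the 8 loci.

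The 8 lowest log2 fold changes, by the same rule, lay between -2.67 and -1.61, and 7 of these 8 loci had a mean under 10 FPKM. The exception was MSTRG.14170, numbered between VAMP5 and GGCX (the vitamin K-dependent gamma-glutamyl carboxylase) in chr2:85544723-85593412. It fell from 55.5, 52.2 and 47.6 FPKM in WT to 11.2, 12.6 and 11.2 FPKM in KO, a log2 fold change of -2.06 (SE 0.08, limma adjusted p = 1.9e-07). MAT2A (chr2:85539165-85545280) was the only protein-coding gene not listed by name that overlapped that span, and only its end did. By position GGCX comes before VAMP5, so the numbers run against position here. MAT2A lies on the far side of GGCX from VAMP5. VAMP5 and GGCX had log2 fold changes of 0.29 and -0.15.

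MSTRG.1767 had the lowest value of all. It was numbered between LAMTOR2 and SSR2 in chr1:156009048-156058510, a span with 0 unlisted protein-coding genes, and stood at 11.2, 12.9 and 14.8 FPKM in WT and at 2.67, 1.70 and 0.0483 FPKM in KO. The groups did not overlap, but the KO libraries spread widely, and the log2 fold change was -2.67 (SE 0.39, limma adjusted p = 0.00050, and 0.20 with the library term). MSTRG.24386, between ATP6V1G1 and CDK5RAP2 on chromosome 9, stood at 9.69, 9.87 and 11.5 FPKM in WT and at 1.04, 1.61 and 1.28 FPKM in KO. MSTRG.580, between PEF1 and TXLNA on chromosome 1, stood at 6.59, 6.93 and 7.83 FPKM in WT and at 1.205, 1.49 and 1.62 FPKM in KO. Their log2 fold changes of -2.30 and -1.73 were each past the threshold.

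In 3 more loci of this group the KO level was under 1 FPKM in every library. MSTRG.4328, between COA4 and PPME1 on chromosome 11, stood at 4.11, 3.09 and 2.50 FPKM in WT and at 0.386, 0 and 0 FPKM in KO. MSTRG.9523, between CTCF and ACD on chromosome 16, stood at 1.97, 2.32 and 2.57 FPKM in WT and at 0, 0.0603 and 0 FPKM in KO. MSTRG.9423, between DOK4 and MMP15 on chromosome 16, stood at 2.41, 5.32 and 2.97 FPKM in WT and at 0, 0.592 and 0.120 FPKM in KO. MSTRG.22366, the last of the 8, stood at 7.60, 6.56 and 6.60 FPKM in WT and 1.57, 2.09 and 1.17 FPKM in KO. It was numbered between TRIM4 and ZNF3, which had log2 fold changes of -0.45 and -1.31. ZNF3 was itself low, at 0, 0.405 and 0.792 FPKM in KO. With the library term MSTRG.9423 and MSTRG.22366 were no longer called (adjusted p = 0.16 and 0.058). Chosen after their values were seen, MSTRG.21477 and MSTRG.10022 were the 2 unnamed loci listed at 0 in all KO libraries and at 1 FPKM or more in all WT libraries, against 0 named loci. The reverse, 0 in all WT libraries and 1 FPKM or more in all KO libraries, was listed for 0 unnamed loci and 1 named locus. MSTRG.21477 (SF3B5 to RAB32, chromosome 6) stood at 2.34, 1.25 and 1.95 FPKM in WT, and was not called with the library term (adjusted p = 0.051) or without WT replicate 1. MSTRG.10022 (EMC6 to MYBBP1A, chromosome 17) stood at 1.86, 2.18 and 1.93 FPKM.

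**Figure D3:**
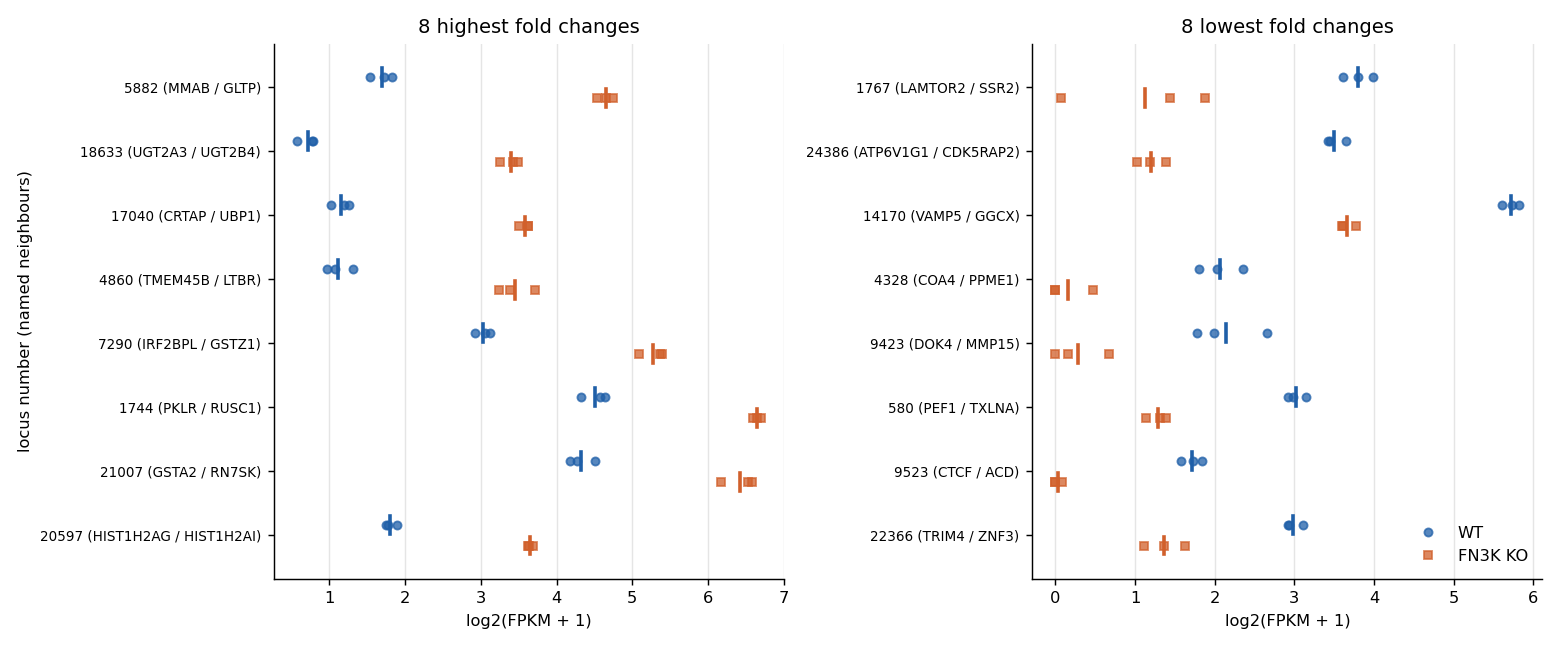
Log2(FPKM + 1) (x axis) of the 8 unnamed loci with the highest (left) and the 8 with the lowest (right) log2 fold changes, labelled by locus number and named neighbours. Each blue circle is a WT library, each orange square a KO library, and vertical bars are group means, and in every row the groups do not overlap.

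The most abundant unnamed locus, MSTRG.18664, had AFP as its lower named neighbour, the fetal albumin-like protein that HepG2 cells secrete, and the chemokine gene CXCL8 on chromosome 4 as its upper one. It stood at 6028, 6597 and 6182 FPKM in WT and at 12641, 11955 and 11602 FPKM in KO, a log2 fold change of 0.94 (SE 0.16, limma adjusted p = 0.0010). All 3 KO libraries were above all 3 WT libraries, and AFP itself had a log2 fold change of 2.01. ALB is not listed by name and lies on the reference between ANKRD17 and AFP, where 0 unnamed loci were numbered. Within 3 named loci on each side of ALB, 2 unnamed loci were numbered, MSTRG.18663 and MSTRG.18664, among 19 other unlisted protein-coding genes.

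MSTRG.21093, between RPL39P3 and COX7A2 on chromosome 6, stood at 2662, 2760 and 2663 FPKM in WT and fell to 1637, 1592 and 1453 FPKM in KO, a log2 fold change of -0.79 (SE 0.10, limma adjusted p = 0.00017). The other abundant loci shown differed less. MSTRG.13179, between NUCB1 and BAX on chromosome 19, stood at 1748, 1896 and 1981 FPKM in WT and 2382, 2220 and 2590 FPKM in KO, and lost its call with the library term and without WT replicate 1 or 2 or KO replicate 1. MSTRG.4962, between M6PR and MANSC1 on chromosome 12, had a log2 fold change of 0.45 (not called with the library term), and MSTRG.25470, between RAP2C and HPRT1 on chromosome X, one of 0.19 with a limma adjusted p of 0.10.

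A group of abundant unnamed loci was numbered around RNA5-8S5, a ribosomal RNA gene that lies in tandem repeats and, in the reference, also on scaffolds outside the chromosomes. Of 20 such loci 6 had a mean of at least 100 FPKM. Their summed level was 7575, 4272 and 3170 FPKM in WT and 2881, 5163 and 4058 FPKM in KO, or between 0.993% and 2.52% of the summed FPKM of a library. All 6 were highest in the library of WT replicate 1. The groups overlapped, the log2 fold changes lay between -0.32 and -0.07, and the limma adjusted p-values lay between 0.37 and 0.85. Among the 20 loci 3 were called, against 57.7% of all loci. RN7SK, a small nuclear RNA gene with a name, was likewise highest in that library, at 148 FPKM against 26.8 to 47.6 FPKM in the other 5. Ribosomal repeats are near copies, so reads could be shared between these loci. The labels name oligo(dT) beads for eukaryotic mRNA and ribosomal RNA removal for other kinds of library, and which step these libraries had is not stated further.

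**Figure D4:**
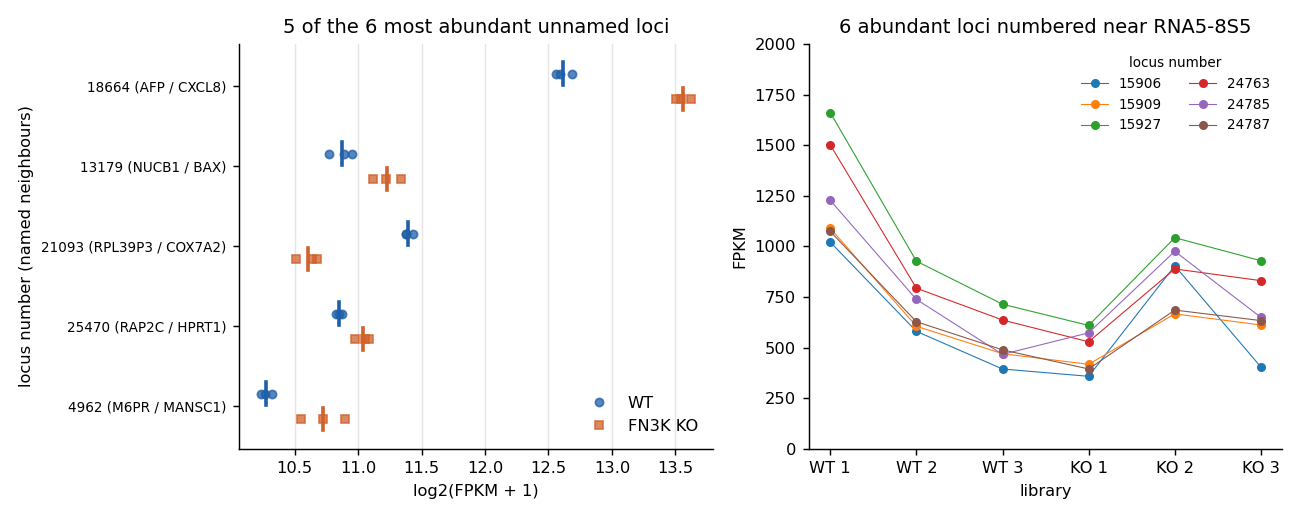
Left, log2(FPKM + 1) of 5 of the 6 most abundant unnamed loci by library (blue circles WT, orange squares FN3K KO, vertical bars group means; the axis does not start at 0). Right, FPKM of the 6 abundant unnamed loci numbered near RNA5-8S5 in each library, where each colour is a locus and the thin lines only join its values; all 6 are highest in WT replicate 1.

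The 4 unnamed loci with the largest SD within groups, among those with a mean of at least 1 FPKM, swung between 0 or nearly 0 and several FPKM. MSTRG.17593, between QTRTD1 and B4GALT4 on chromosome 3, stood at 0, 13.7 and 14.2 FPKM in WT and at 0, 0 and 12.6 FPKM in KO. MSTRG.522, between PPP1R8 and DNAJC8 on chromosome 1, was at 0 in all WT libraries and at 4.15, 4.72 and 0 FPKM in KO. MSTRG.19610, between PAPD4 and SERINC5 on chromosome 5, stood at 6.73, 8.89 and 8.201 FPKM in WT and at 5.27, 0 and 5.17 FPKM in KO. MSTRG.24764, beside the ribosomal repeats, stood at 15.9, 1.99 and 8.90 FPKM in WT and at 0.541, 27.6 and 3.95 FPKM in KO. None of the 4 had a limma adjusted p under 0.05.

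Known pathways of this liver line were then looked up by place. Cells make cholesterol from acetyl-CoA through mevalonate, conjugate electrophiles to glutathione, make NAD and coenzyme A from vitamins, and make S-adenosylmethionine from methionine. Over 8 gene lists, 43 genes were not listed by name. For 24 of them at least 1 unnamed locus was numbered between the named loci that flank the gene on the reference, 14 of these with 1 locus and 10 with 2 or 3, and for 19 there was none. The 19 include SNHG29, which had no coordinates here and could not be looked up, and NEAT1, whose upper flank was a row named NEAT1_1. The flanks enclosed 36 distinct unnamed loci, of which 13 were called higher, 14 lower and 9 neither, with a median log2 fold change of -0.21. Over all loci 21.2% were called higher and 36.5% lower, which is also the background for the counts of listed genes that follow. With the library term 14 of the 27 called loci kept their call and 13 lost it. As a check of this step, 83.4% of 4840 named loci had a number between those of their flanks. For 34 of the 36 loci the list gene also overlapped, in whole or in part, the span of the locus's own nearest named loci. The exceptions were MSTRG.17250 and MSTRG.4586.

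Of 28 genes of the sterol and mevalonate list 23 were listed by name, and 21 of these were called higher. Over the 23 the median log2 fold change was 2.04. MVK, FDPS, TM7SF2, HSD17B7 and INSIG1 were not listed by name. MSTRG.5882 was the single unnamed locus between the flanks of MVK (mevalonate kinase), beside 2 other unlisted protein-coding genes. MSTRG.1744 was the single one between the flanks of FDPS (farnesyl diphosphate synthase), beside 1 other. At HSD17B7, a sterol reductase gene, MSTRG.1854 stood at 4.63, 5.61 and 5.21 FPKM in WT and 15.6, 13.0 and 15.6 FPKM in KO. MSTRG.1855 in the same interval overlapped between groups, with 2.66, 0 and 2.52 FPKM in WT, and 9 other unlisted genes lay there. At INSIG1, which retains the sterol sensor in the endoplasmic reticulum, both MSTRG.22852 and MSTRG.22858 were called lower with log2 fold changes of -0.73 and -0.72, beside 8 other unlisted genes. Both lost the call with the library term and without WT replicate 3 or KO replicate 1.

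Of 17 genes of the fatty acid list 12 were listed, with 8 called higher and 1 lower. MSTRG.25351 was the single unnamed locus between the flanks of ACSL4, which activates long-chain fatty acids, on chromosome X. It rose from 33.0, 37.8 and 32.8 FPKM in WT to 79.7, 71.8 and 71.6 FPKM in KO, a log2 fold change of 1.08 (SE 0.07, limma adjusted p = 5.5e-06). MSTRG.20467 between the flanks of the elongase gene ELOVL2 had 30.7, 31.8 and 31.4 FPKM in WT and 33.1, 32.3 and 32.8 FPKM in KO, with a limma adjusted p of 0.32. Each of these intervals held other unlisted genes, 5 for ACSL4 and 6 for ELOVL2.

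Of 21 genes of the glutathione and NRF2 list 17 were listed, with 12 called higher and 2 lower. MSTRG.21007, described above, was the single unnamed locus between the flanks of GSTA1. At RRM2, which encodes a subunit of ribonucleotide reductase, 2 loci were enclosed beside 3 other unlisted protein-coding genes. MSTRG.13530 stood at 2.78, 4.02 and 3.59 FPKM in WT and 7.85, 8.30 and 7.94 FPKM in KO, and MSTRG.13538 had a log2 fold change of 0.39. The flanks of GPX1, a glutathione peroxidase gene, enclosed MSTRG.17256, called higher (0.19 on the log2 scale) but not without WT replicate 1 or 2 or KO replicate 2 or 3. They also enclosed MSTRG.17250, called lower (-0.44), whose nearest named loci CCDC71 and LAMB2 span a stretch that does not hold GPX1. MSTRG.13538 and MSTRG.17250 were not called with the library term. Between the flanks of GPX1 lay 5 other unlisted protein-coding genes.

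Of 19 genes of the NAD and coenzyme A list 11 were listed, with 7 called higher and 1 lower. MSTRG.9172 was the single unnamed locus between the flanks of QPRT, which makes nicotinate mononucleotide from quinolinate, on chromosome 16. It rose from 66.9, 70.6 and 69.2 FPKM in WT to 143, 142 and 134 FPKM in KO, a log2 fold change of 1.01 (SE 0.05, limma adjusted p = 1.3e-06), and 4 other unlisted genes lay in the interval. At NAPRT, the nicotinate phosphoribosyltransferase gene, MSTRG.23716 fell from 105, 98.6 and 104 FPKM in WT to 57.7, 55.0 and 61.9 FPKM in KO, while MSTRG.23714 overlapped between groups. That interval held 8 other unlisted genes, among them EEF1D. MSTRG.8236 at PPCDC and MSTRG.214 and MSTRG.216 at NMNAT1 were called lower, with log2 fold changes of -0.32, -0.26 and -0.30. MSTRG.4586, the single unnamed locus between the flanks of NNMT, was also called lower (-0.76 on the log2 scale), but not without WT replicate 2. Its own nearest named loci were PTS and TIMM8B, and NNMT lies outside their span. Of the 3 loci between the flanks of PANK4, MSTRG.114 was called higher (0.80) and MSTRG.108 lower (-0.23) on the log2 scale, and MSTRG.109 was not called. Other unlisted protein-coding genes between the flanks numbered 13 for PANK4, 12 for NNMT, 3 for PPCDC and 2 for NMNAT1. With the library term the calls of MSTRG.8236, MSTRG.214, MSTRG.216, MSTRG.4586, MSTRG.114 and MSTRG.108 were lost.

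Of 8 genes of the methionine list 3 were listed, and all 3 were called lower. The flanks of MAT2A, which makes S-adenosylmethionine, enclosed MSTRG.14170 and MSTRG.14166 beside 3 other unlisted genes. MSTRG.14166 stood at 6.41, 6.77 and 5.96 FPKM in WT and 5.51, 4.15 and 5.44 FPKM in KO, without a call (limma adjusted p = 0.076). Of those at MAT1A, the liver form of that enzyme, MSTRG.3055 stood at 8.72, 9.69 and 8.42 FPKM in WT and 21.6, 18.5 and 20.4 FPKM in KO, and MSTRG.3052 had a log2 fold change of 0.56. Of the 3 at AHCY, the S-adenosylhomocysteine hydrolase gene, MSTRG.15530 fell from 235, 236 and 231 FPKM in WT to 149, 146 and 146 FPKM in KO, MSTRG.15527 had a log2 fold change of -0.26, and MSTRG.15533 was not called. MSTRG.3052 and MSTRG.15527 lost the call with the library term. Other unlisted protein-coding genes between the flanks numbered 3 at MAT1A and 5 at AHCY.

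Genes that host small nucleolar RNAs in their introns had 8 of 14 listed, of which 7 were called lower, and the median over the 8 was -1.67 (log2 fold change). MSTRG.15618 was the single unnamed locus between the flanks of SNHG17, with 10.48, 10.99 and 15.0 FPKM in WT and 4.52, 5.73 and 3.34 FPKM in KO. Its log2 fold change was -1.26 (SE 0.18, limma adjusted p = 0.00045, and 0.17 with the library term). MSTRG.22022 between the flanks of SNHG15 had a log2 fold change of -0.18 and was not called (limma adjusted p = 0.070). Unlisted protein-coding genes between the flanks numbered 3 at SNHG17 and 9 at SNHG15. Of 6 long RNAs 2 were listed, 1 of them called lower. MSTRG.3561 was the single unnamed locus between the flanks of H19, an imprinted RNA gene, beside unlisted protein-coding genes such as IGF2 and CD81. It fell from 431, 402 and 399 FPKM in WT to 221, 208 and 229 FPKM in KO, a log2 fold change of -0.90 (SE 0.06, limma adjusted p = 7.1e-06).

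Among the 6 hepatocyte markers that were not listed by name, APOC3 is a lipoprotein gene. MSTRG.4613 was the single unnamed locus between its flanks APOA4 and APOA1 on chromosome 11, with 0 other unlisted protein-coding genes between them. It rose from 84.7, 92.6 and 88.9 FPKM in WT to 161, 156 and 177 FPKM in KO, a log2 fold change of 0.88 (SE 0.06, limma adjusted p = 8.4e-06), and APOA1 itself had a log2 fold change of 1.14. In number order its nearest named loci were APOA4, with a log2 fold change of 2.54, and PAFAH1B2, with -0.19, and their span also held the unlisted gene SIK3. MSTRG.19059, beside the fibrinogen gene FGA and between the flanks of FGG, stood at 610, 558 and 529 FPKM in WT and 579, 524 and 582 FPKM in KO, with overlapping groups. MSTRG.11212 at APOH stayed under 3 FPKM in every library and was not called. Other unlisted protein-coding genes between the flanks numbered 9 at FGG and 7 at APOH.

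**Figure D5:**
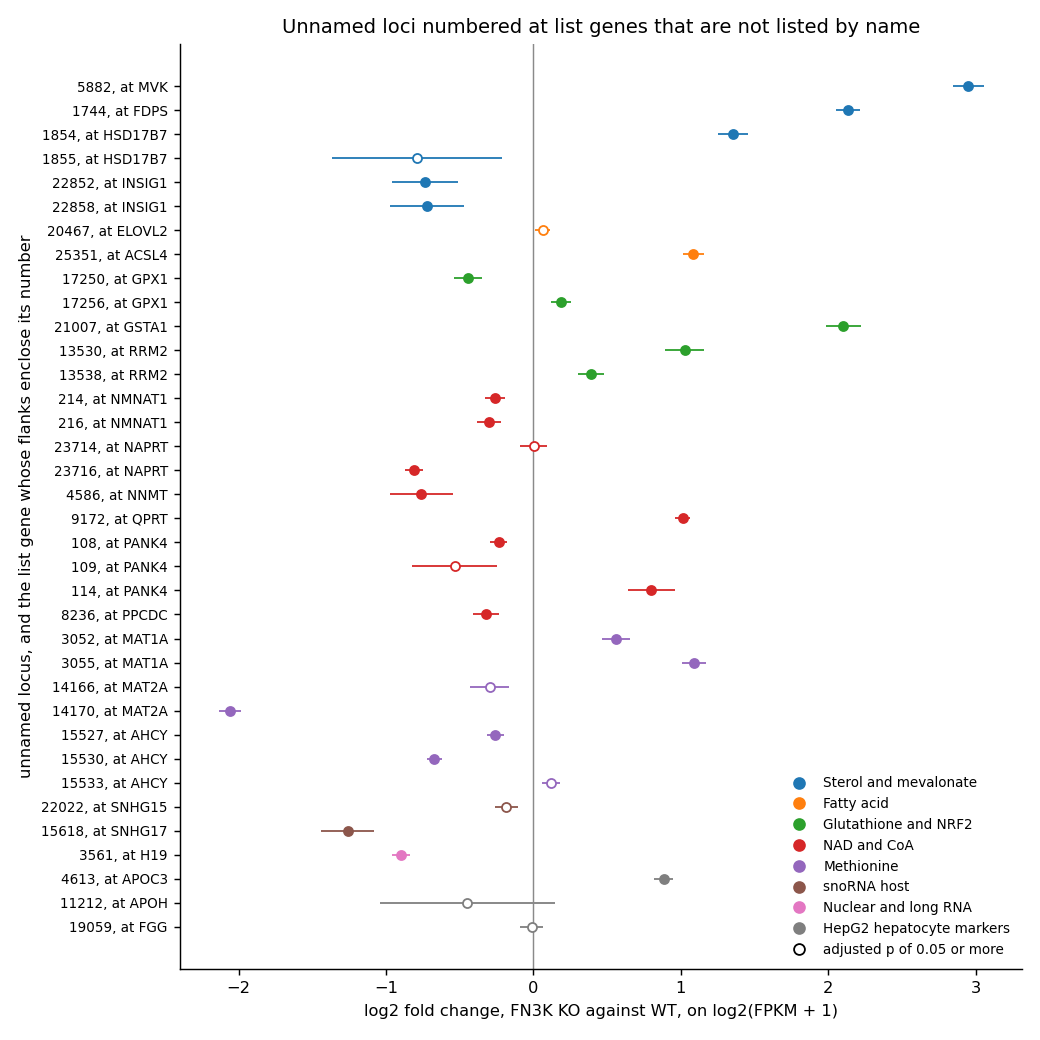
Log2 fold change, FN3K KO against WT, with its standard error (x axis) of the 36 unnamed loci numbered between the flanks of a list gene that the table does not list by name (y axis, locus number and that gene). Colours mark the gene list and open circles loci with an adjusted p of 0.05 or more; values run from -2.06 for the locus at MAT2A to 2.95 for that at MVK, and the label gives a place and not the identity of the locus.

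The longest run without a named locus was that of 7 loci between PEPD and USF2 on chromosome 19, a stretch with 26 unlisted protein-coding genes. It held 5 loci called lower, 1 called higher and 1 not called, with a median log2 fold change of -0.26. Over all loci 36.5% were called lower and 21.2% higher. MSTRG.12805 was the one called higher, with 10.7, 8.71 and 9.85 FPKM in WT and 18.8, 18.6 and 15.1 FPKM in KO. In the same run MSTRG.12781 fell from 31.5, 36.9 and 37.2 FPKM in WT to 22.7, 21.6 and 21.4 FPKM in KO. The called log2 fold changes of the others lay at -0.43 for MSTRG.12772, -0.64 for MSTRG.12793, -0.26 for MSTRG.12796 and -0.23 for MSTRG.12802, while MSTRG.12778 had 0.14. MSTRG.12796 and MSTRG.12802 each lost the call when any of 3 single libraries was left out, and with the library term none of the 7 was called.

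The run of 6 loci between NDUFB9 and ASAP1 on chromosome 8 held 2 loci called lower, 1 called higher and 3 not called, against 36.5% lower and 21.2% higher over all loci. MSTRG.23642 fell from 69.0, 80.5 and 80.5 FPKM in WT to 46.2, 63.2 and 50.9 FPKM in KO, and MSTRG.23632 from 5.08, 7.51 and 5.97 FPKM to 3.20, 3.98 and 2.47 FPKM. MSTRG.23634 had 18.8, 21.3 and 23.2 FPKM in WT and 25.5, 26.4 and 24.7 FPKM in KO, and lost its call without KO replicate 1 or 2. With the library term the called loci of this run lost their call except MSTRG.23634. The groups overlapped for MSTRG.23637, MSTRG.23640 and MSTRG.23650. Members of a run thus differed in direction in both runs.

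By chromosome, the median log2 fold change of unnamed loci was above 0 on chromosome 14, at 0.12 over 39 loci, and below 0 on the other chromosomes from 1 to 22 and X. Calls on chromosome 14 were 17 higher and 7 lower among these 39, against 21.2% and 36.5% of all loci. Named loci of chromosome 14 had a median of 0.25. On chromosome 19, 52 of 104 unnamed loci were called lower and 7 higher, against 36.5% and 21.2% of all loci, and their median log2 fold change was -0.28 beside -0.21 over named loci of that chromosome. The share of loci without a name ran from 14.5% on chromosome 22 to 34.7% on chromosome 13. A stretch of chromosome 14 between ABHD4 and FBXO33, chosen after values were seen, held 12 unnamed loci. Of these 11 were called higher and 0 lower, against 21.2% and 36.5% of all loci. Their median log2 fold change was 0.55 beside 0.60 over 48 named loci of the stretch. Within that stretch MSTRG.6921 stood at 29.5, 30.9 and 30.3 FPKM in WT and 82.9, 85.1 and 79.7 FPKM in KO, and MSTRG.6753 at 78.2, 86.2 and 86.2 FPKM in WT and 202, 192 and 202 FPKM in KO.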

How the data were processed

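The authors mapped the reads of 6 libraries with HISAT2 and assembled and quantified transcripts with StringTie 2.0.6 on GRCh38.p5, per the labels, and deposited FPKM values per locus. Library strand and any filter that left out loci are not given in the sources used here. Without counts the depth is unknown, so values carry no counting interval. The deposited table holds 1 value per locus and library.

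All 6357 loci were fitted in R 4.3.3 with limma 3.58.1 (lmFit and trended eBayes) on log2(FPKM + 1), KO against WT, two-sided, with Benjamini-Hochberg adjustment. An exact permutation test of 3 against 3 libraries cannot go below p = 0.10 and was not used. Placement used GENCODE release 29 coordinates of 4892 of 4926 named loci. A gene counts as unlisted where the table has no row of that name.

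Loci named are the 8 highest and 8 lowest log2 fold changes (adjusted p under 0.05, mean of at least 1 FPKM, no overlap), the 6 highest means, the 4 largest SDs, the 2 longest runs, and loci between the flanks of unlisted list genes. Of the 6 highest means, 1 is not reported here. The loci, lists and tests were chosen with earlier results of these data known. As alternatives, the pseudocount was set to 0.1, loci under a mean of 1 FPKM were dropped, libraries were scaled to their 75th percentile, the variance trend was left out, the Ballgown library term was used with an ordinary linear model, a replicate block was added, each library was left out, and 3 neighbours a side were required.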

Additional observations from a re-analysis of the deposited data

How the results depend on the processing

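The count of 727 called loci lay between 689 and 732 with a pseudocount of 0.1, a minimum mean, scaling to the 75th percentile, no variance trend or a replicate block, and between 612 and 710 when 1 library was left out. With the Ballgown library term it was 206, and the median log2 fold change moved from -0.178 to -0.0917. The count of 137 loci past the fold limit lay between 97 (library term) and 168 (pseudocount of 0.1), and between 119 and 143 with 1 library left out. Same-numbered WT and KO libraries correlated in their deviations from the group means at 0.010, 0.006 and 0.046. Differently numbered ones lay between -0.045 and 0.035. With 3 libraries a group, such values cannot tell whether plates were paired. With the replicate block 732 and 138 loci passed.

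Of 874 alternative values for 73 named loci 794 kept direction and side of the threshold, 54 lost the call, 9 gained it and 17 changed sign. The fit with the library term, in which the spread was also not shared across loci, held 28 of the 54 losses, and leaving out 1 library 23. With the library term the log2 fold changes were 0.81 for MSTRG.17593, 0.33 for MSTRG.24764, -0.17 for MSTRG.23640 and 0.83 for MSTRG.11212, and with 75th percentile scaling 0.0376 for MSTRG.19059. With 1 library left out they ranged from -1.52 to 0.58 for MSTRG.24764, from -0.0601 to 0.0661 for MSTRG.23640, from -0.23 to 0.13 for MSTRG.23650, from -0.0649 to 0.0531 for MSTRG.23714 and from -0.0568 to 0.0454 for MSTRG.19059. The cause was not tested. The 8 highest loci all kept their call with the library term, and 5 of the 8 lowest did. Leaving out 1 library ended the call of 9 loci, namely MSTRG.21477, MSTRG.13179, MSTRG.17256, MSTRG.22852, MSTRG.22858, MSTRG.4586, MSTRG.23634, MSTRG.12796 and MSTRG.12802, with adjusted p-values between 0.051 and 0.102. It gave a call to MSTRG.522 (without FN3K KO replicate 3), to MSTRG.19610 (without FN3K KO replicate 1 or 2) and to MSTRG.1855 (without WT replicate 2). The replicate block gave a call to MSTRG.522 and MSTRG.19610 and ended that of MSTRG.22858. The other gained calls were MSTRG.19059 with the library term (adjusted p = 0.046), MSTRG.25470 without the variance trend (0.036) and MSTRG.12778 with 75th percentile scaling (0.021). With 3 named loci required on each side 1359 loci were placed.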
